A study of Mus musculus with 8 samples.

Results

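The Nduf genes encode the nuclear part of respiratory complex I, together with factors that help to assemble it, and they were followed here in unloaded and weight bearing mouse muscle. Every probe set whose gene symbol in the platform's annotation starts with Nduf was taken, whatever its values were, which gave 44 genes with 1 probe set each of 21212 probe sets on the arrays. They were divided into 6 core subunits, 28 accessory subunits, 7 assembly factors (Ndufaf1 to Ndufaf7), Ndufa4 with its paralog Ndufa4l2, and Ndufa11b, which RefSeq annotates as a transcribed pseudogene. The HU group was 4 RNA samples of female wild type C57BL/6J mice, 7 weeks old, with 5 days of hind limb unloading. The WB group was 4 RNA samples of such mice left weight bearing. Both groups had the same genotype and housing, and the question asked of these arrays was which transcripts differ when muscle is unloaded. Total RNA of the gastrocnemius and plantaris, both mixed muscles of the calf, was hybridised on 1 array per RNA sample. Ndufab1, Ndufb1, Ndufaf8 and the Nd genes of the mitochondrial genome were not analysed here.

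Complex I (NADH:ubiquinone oxidoreductase) is the entry point of the respiratory chain, where electrons pass from NADH to ubiquinone while protons are pumped across the inner mitochondrial membrane. It has the shape of an L: a peripheral arm in the matrix carries the N module, which oxidises NADH, and the Q module, which reduces ubiquinone, and a membrane arm pumps the protons. Core subunits are those shared with bacteria and hold the catalytic centres, accessory subunits surround them, and assembly factors act during construction and are absent from the finished enzyme. In skeletal muscle the complex is most abundant in oxidative fibres, which are rich in mitochondria.

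Values are log2 expression, so a difference of 1 is a 2-fold change, and each difference is HU minus WB. A gene is said to have fallen or risen where limma gave an adjusted p under 0.05 over all 21212 probe sets. The array medians lay between 6.28 and 6.33, arrays of the same group correlated with r of at least 0.996 and arrays of different groups with r of 0.992 to 0.994, and 0 arrays were identical. The muscle fibre markers were bright in both groups, with a mean of 12.74 to 12.77 over 8 markers on the HU arrays and of 12.78 to 12.84 on the WB arrays. In bulk muscle, fewer fibres of a type and less RNA per fibre cannot be told apart. The arrays were normalised to a common distribution, so that a shift common to all transcripts would not be seen.

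Motifs of factors known to act on genes of the respiratory chain were searched in the RefSeq promoter windows (GRCm38.p6, 250 bases before to 50 bases after a gene's start), which held 38 of the 44 Nduf genes. The letters AAGATGGC, known from the factor YY1, were found on either strand in 7 of the 38 genes (18.4%), against 862 of 27025 genes in all (3.19%). They are shown because all 7 lay on the gene's own strand within the last 50 bases of the window, a position that 280 of the 27025 genes shared (1.04%). The letters contain ATGG, with which many coding sequences begin, and whether these matches are start codons was not tested. The capitals mark the motif, and each sequence is 30 bases, 5′ to 3′ on the gene's strand.
Ndufc1, chr3:51408915-51408944 (- strand): gcctgcggaacAAGATGGCgccgtccgtag
Ndufb8, chr19:44555393-44555422 (- strand): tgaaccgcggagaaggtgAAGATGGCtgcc
Ndufa9, chr6:126849097-126849126 (- strand): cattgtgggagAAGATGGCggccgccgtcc
Ndufs6, chr13:73328433-73328462 (- strand): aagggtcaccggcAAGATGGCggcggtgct
Ndufs4, chr13:114388045-114388074 (- strand): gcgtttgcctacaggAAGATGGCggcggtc
Ndufs7, chr10:80249462-80249491 (+ strand): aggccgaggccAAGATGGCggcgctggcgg
Ndufa3, chr7:3617384-3617413 (+ strand): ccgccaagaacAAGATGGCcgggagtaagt

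The letters GCATGCGC, known from NRF1, a factor of nuclear genes for mitochondrial proteins, were found in 5 of the 38 genes (13.2%), against 824 of the 27025 genes (3.05%). Where they stand within GCGCATGCGC they are read on both strands. These matches are shown because both classes compared here, subunits and assembly factors, hold them. Ndufaf4 has a pair of matches, the first read on both strands and the second only on the strand opposite to the gene's.
Ndufaf5, chr2:140170651-140170680 (+ strand): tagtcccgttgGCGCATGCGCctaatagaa
Ndufaf4, first match, chr4:24897959-24897988 (+ strand): cccagatgtctGCGCATGCGCctgtgcgga
Ndufaf4, second match, chr4:24898073-24898102 (+ strand): gcccctggtgtGCGCATGCtccgtgcgtac
Ndufa8, chr2:36049328-36049357 (- strand): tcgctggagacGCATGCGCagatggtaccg
Ndufa11, chr17:56717691-56717720 (+ strand): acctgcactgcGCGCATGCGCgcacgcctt
Ndufa6, chr15:82354356-82354385 (- strand): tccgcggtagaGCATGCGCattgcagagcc

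The 250 bases before the start of Ndufaf4 and Ndufa8 are given to show where the motif lies in them. The first match of Ndufaf4 lies in the middle of the stretch, and that of Ndufa8 against the start. The second match of Ndufaf4 lies just after its start and so outside the stretch given.
Ndufaf4, chr4:24897833-24898082 (+ strand): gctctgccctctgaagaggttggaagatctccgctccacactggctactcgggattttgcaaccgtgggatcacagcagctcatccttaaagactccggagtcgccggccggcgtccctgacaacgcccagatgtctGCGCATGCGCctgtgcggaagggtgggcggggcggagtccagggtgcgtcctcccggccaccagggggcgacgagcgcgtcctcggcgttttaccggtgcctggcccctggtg
Ndufa8, chr2:36049339-36049588 (- strand): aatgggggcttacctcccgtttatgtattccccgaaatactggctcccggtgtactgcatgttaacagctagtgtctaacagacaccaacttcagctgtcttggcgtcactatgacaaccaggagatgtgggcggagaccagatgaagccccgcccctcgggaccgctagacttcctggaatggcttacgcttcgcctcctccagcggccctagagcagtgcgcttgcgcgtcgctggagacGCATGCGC
The letters AAGGTCA (estrogen-related receptors) were in 3 of the 38 genes (7.89%), against 5.38% of all genes, and CCGGAAG (ETS factors such as GABP) in 5 (13.2%), against 9.93%. A match is a description of the letters and no sign that a factor binds there. Of the 25 Nduf genes with a window that fell, 4 held the YY1 letters and 3 the NRF1 letters, and of the 13 with a window that were not called, 3 held the YY1 letters and 2 the NRF1 letters.

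Across the 44 Nduf genes, transcripts were lower in HU muscle over a narrow range of sizes. By limma 31 of the 44 (70.5%) fell, where 11.0% of all probe sets did, and 0 rose, where 12.8% of all probe sets did. At an unadjusted p under 0.05 (limma), 37 were lower and 1 was higher, where 3262 of the 21212 probe sets were lower and 4669 higher. The 31 that fell were between 1.10 and 1.41-fold lower, and 0 of the 44 reached 1.5-fold. The median difference was -0.24 on the log2 scale, against 0.04 over all probe sets, and 42 of the 44 differences were below 0. On all 4 HU arrays 34 of the 44 (77.3%) read lower than on any WB array, which was so for 12.0% of all probe sets. The methods' t-test, run here as a Welch test, called 18 lower (40.9%, against 6.48% of all probe sets). A minimum change of 1.2-fold left 19 (43.2%, against 7.34%), and neither called a gene higher.

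**Figure D1:**
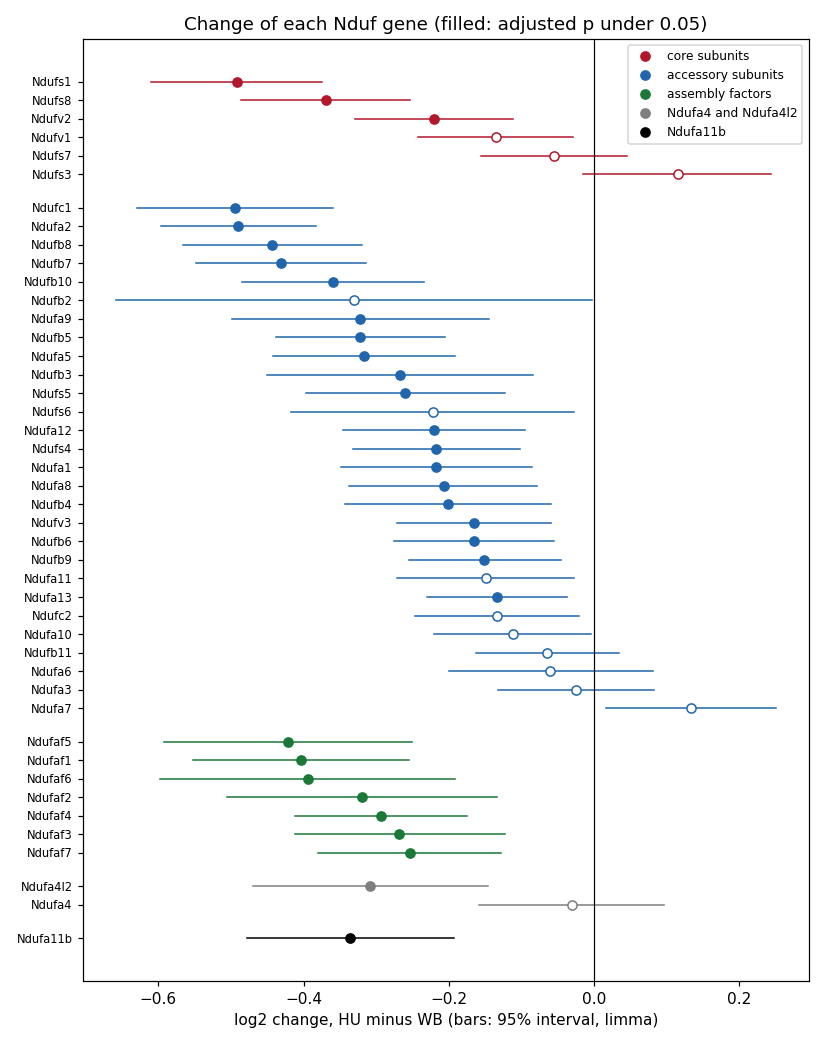
Log2 difference (HU minus WB, x axis) of each of the 44 Nduf genes (y axis), grouped by class, with 95% intervals from limma over 4 arrays per group; filled points have an adjusted p under 0.05. The points of the 7 assembly factors lie between -0.42 and -0.25, while the 6 core subunits spread between -0.49 and 0.12.

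The classes are given side by side, and differences between them were not tested. Of the core subunits 3 of 6 fell, of the accessory subunits 19 of 28 and of the assembly factors 7 of 7, with median differences of -0.18, -0.22 and -0.32. The order of the core and accessory shares depended on the test, and the share of the assembly factors was the largest in each. The methods' t-test called 3 of 6 core subunits, 10 of 28 accessory subunits (35.7%) and 4 of 7 assembly factors (57.1%). With a minimum change of 1.2-fold 33.3% of the core subunits, 32.1% of the accessory subunits and 85.7% of the assembly factors were left. Averaged over the class, the core subunits read 11.27, 11.25, 11.39 and 11.33 on the HU arrays, against 11.49, 11.48, 11.52 and 11.51 on the WB arrays. The accessory subunits averaged 10.11, 10.07, 10.19 and 10.14 on the HU arrays, against 10.35, 10.31, 10.43 and 10.34 on the WB arrays. The assembly factors averaged 7.72, 7.60, 7.68 and 7.67 on the HU arrays, against 8.02, 7.98, 8.02 and 8.00 on the WB arrays. In each of the 3 classes all HU arrays were below all WB arrays. The second HU array was the lowest of its group for 24 of the 44 genes, and the third WB array the highest of its group for 24.

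**Figure D2:**
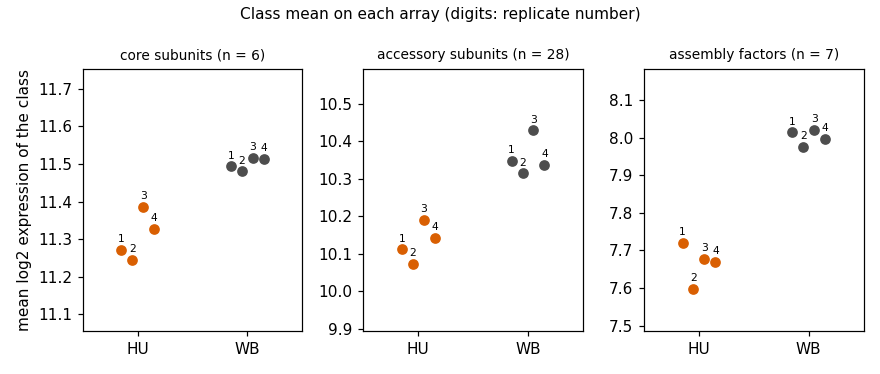
Mean log2 expression of the core subunits, accessory subunits and assembly factors (y axis, 1 panel per class) on each of the 4 HU and 4 WB arrays (points, with the replicate number). No HU point reaches a WB point in any panel, and the gap between the groups is -0.34 for assembly factors and -0.19 for core subunits.

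Among the core subunits, those that fell came from the N module and the Q module alike. Ndufs1, the largest core subunit, carries iron-sulfur clusters of the N module. Ndufs1 measured 10.19, 10.09, 10.27 and 10.18 log2 on the HU arrays, against 10.63, 10.64, 10.75 and 10.67 on the WB arrays. The highest HU array was well below the lowest WB array, and the fall was 1.41-fold (log2 difference -0.49 ± 0.05, SE, limma adjusted p = 0.000194). Ndufs8 of the Q module holds the iron-sulfur clusters that lead towards ubiquinone. Ndufs8 gave 10.89, 10.85, 11.01 and 11.03 log2 on the HU arrays, against 11.32, 11.32, 11.31 and 11.31 on the WB arrays. The WB arrays were almost equal (SD 0.002) and the HU arrays all below them, by 1.29-fold on average (log2 difference -0.37 ± 0.05, SE, limma adjusted p = 0.000899). Ndufv2, an iron-sulfur subunit of the N module, showed a smaller fall. Ndufv2 stood at 11.62, 11.57, 11.71 and 11.58 log2 on the HU arrays, against 11.84, 11.84, 11.89 and 11.80 on the WB arrays. The groups did not overlap, and the fall was 1.17-fold (log2 difference -0.22 ± 0.05, SE, limma adjusted p = 0.00982).

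The other 3 core subunits were not called. Ndufv1 binds NADH and the flavin that takes up its electrons. Ndufv1 read 10.80, 10.80, 10.91 and 10.89 log2 on the HU arrays, against 10.96, 10.97, 10.96 and 11.04 on the WB arrays. The groups did not overlap, yet the difference of -0.14 ± 0.05 (SE) had a limma adjusted p of 0.0664. Ndufs7 carries the last iron-sulfur cluster before ubiquinone. Ndufs7 measured 12.53, 12.46, 12.57 and 12.56 log2 on the HU arrays, against 12.57, 12.57, 12.60 and 12.61 on the WB arrays. The groups overlapped, and the 95% interval of the difference ran from -0.16 to 0.05 (limma adjusted p = 0.401). Ndufs3, a Q module subunit without a redox centre, was the core subunit with the highest difference. Ndufs3 gave 11.61, 11.71, 11.85 and 11.73 log2 on the HU arrays, against 11.63, 11.56, 11.59 and 11.66 on the WB arrays. Only the first HU array lay among the WB values, and the difference of 0.12 ± 0.06 was not called (limma adjusted p = 0.179). In the Q module as a whole, with accessory subunits, 3 of 5 genes fell, and in the N module 6 of 8, a contrast that was not tested.

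**Figure D3:**
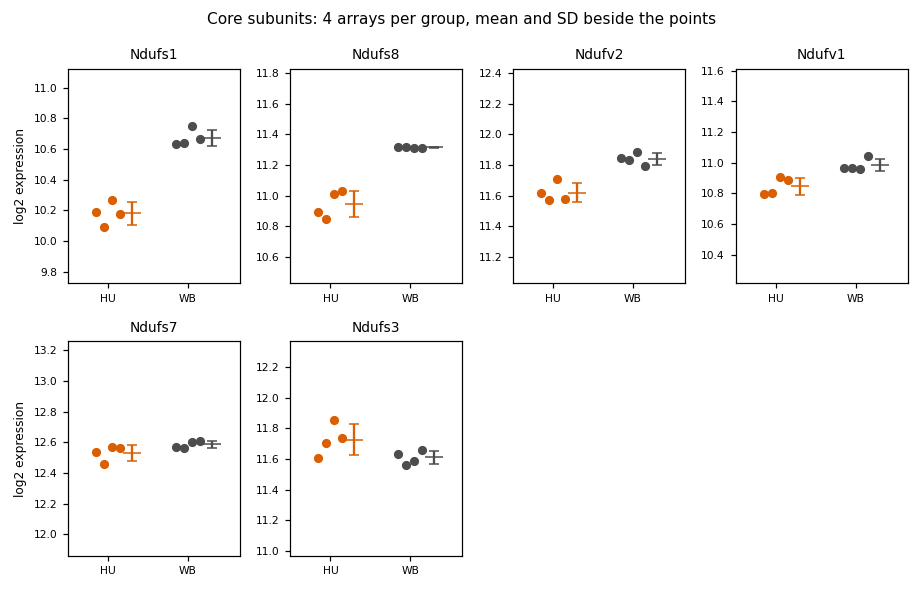
Log2 expression (y axis, all panels span the same range) of the 6 core subunits on the 4 HU and 4 WB arrays (points), with the group mean and SD beside them. Ndufs1, Ndufs8, Ndufv2 and Ndufv1 have no overlap between the groups, and Ndufs7 and Ndufs3 have one.

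The accessory subunits held the largest fall of the family, and their falls were found in both arms: 13 of 19 genes of the membrane arm and 9 of 15 of the peripheral arm, core subunits counted, fell. Ndufc1 is a small subunit of the membrane arm. Ndufc1 stood at 10.65, 10.45, 10.70 and 10.68 log2 on the HU arrays, against 11.12, 11.15, 11.10 and 11.10 on the WB arrays. The fall was 1.41-fold (log2 difference -0.49 ± 0.06, SE, limma adjusted p = 0.000404), with the second HU array lowest, and was the 499th largest fall of all probe sets. Ndufa2, an N module subunit with a thioredoxin-like fold, followed. Ndufa2 read 9.71, 9.73, 9.83 and 9.81 log2 on the HU arrays, against 10.30, 10.27, 10.26 and 10.22 on the WB arrays. Its groups were apart by more than the spread within either of them, at 1.40-fold (log2 difference -0.49 ± 0.05, SE, limma adjusted p = 0.000109). Ndufb8, Ndufb7 and Ndufb10 sit in the membrane arm, the first of them and Ndufb7 in its distal part. Ndufb8 measured 9.88, 10.03, 10.10 and 10.05 log2 on the HU arrays, against 10.42, 10.46, 10.45 and 10.50 on the WB arrays. Ndufb7 gave 9.06, 9.17, 9.15 and 9.22 log2 on the HU arrays, against 9.66, 9.52, 9.57 and 9.57 on the WB arrays. Ndufb10 stood at 8.64, 8.66, 8.81 and 8.70 log2 on the HU arrays, against 9.02, 9.09, 9.14 and 8.98 on the WB arrays. In all 3 the HU arrays were below every WB array, with falls of 1.36-fold for Ndufb8 (limma adjusted p = 0.000431), 1.35-fold for Ndufb7 (limma adjusted p = 0.00038) and 1.28-fold for Ndufb10 (limma adjusted p = 0.00164).

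Ndufb2, also of the distal membrane arm, had a difference of like size that was not called. Ndufb2 read 9.10, 8.85, 9.31 and 9.18 log2 on the HU arrays, against 9.35, 9.15, 9.89 and 9.36 on the WB arrays. The third WB array stood above the other 3, the groups overlapped, and the difference of -0.33 ± 0.15 had a 95% interval of -0.66 to -0.003 (limma adjusted p = 0.131). At the other end of the class were Ndufa7, Ndufa3 and Ndufa6. Ndufa7 belongs to the peripheral arm and was the only accessory subunit with a difference above 0. Ndufa7 measured 9.49, 9.43, 9.56 and 9.51 log2 on the HU arrays, against 9.41, 9.31, 9.43 and 9.29 on the WB arrays. The HU arrays were 9.43 or higher and the WB arrays 9.43 or lower, with an overlap between the second HU array and the third WB array at the third decimal, and the difference of 0.13 ± 0.05 was not called (limma adjusted p = 0.0902). It was called higher after quantile normalization (adjusted p = 0.0452 by limma) and without the dimmest 50% of probe sets (adjusted p = 0.047 by limma). Ndufa3 is a small subunit of the membrane arm. Ndufa3 gave 11.65, 11.63, 11.66 and 11.63 log2 on the HU arrays, against 11.60, 11.69, 11.75 and 11.63 on the WB arrays. Ndufa6 is a LYR-motif subunit that binds the mitochondrial acyl carrier protein. Ndufa6 stood at 10.63, 10.32, 10.49 and 10.48 log2 on the HU arrays, against 10.55, 10.51, 10.55 and 10.54 on the WB arrays. The groups of both overlapped, with 95% intervals of -0.13 to 0.08 for Ndufa3 and of -0.20 to 0.08 for Ndufa6.

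Of the other 19 accessory subunits 14 fell, by 1.10 to 1.25-fold. Ndufa9, a Q module subunit that binds a nicotinamide nucleotide, and Ndufa5, also of the Q module, both fell 1.25-fold. Ndufs4 and Ndufa12, which sit at the N module, fell 1.16-fold (Ndufs4) and 1.17-fold (Ndufa12), and loss of Ndufs4 is known to cause a fatal brain disease in mice. Ndufb4 fell 1.15-fold (limma adjusted p = 0.0453) although its groups overlapped, and Ndufb4b and Ndufb4c, coding copies without a probe set of their own, could not be told apart from it. With 1 array left out, Ndufa12, Ndufa8, Ndufa1, Ndufv3, Ndufb6, Ndufb3, Ndufb9 and Ndufb4 each lost the call in at least 1 of the 8 refits. Their highest limma adjusted p was 0.0537 (Ndufa12) to 0.114 (Ndufb4). Ndufa13, described below, lost the call in all 8 refits (limma adjusted p of 0.0657 to 0.112). The methods' t-test did not call Ndufa9 (adjusted p = 0.0711), Ndufs4 (0.0628) or Ndufs5 (0.0814) either, nor Ndufa1, Ndufa8, Ndufb3, Ndufb4, Ndufb6 and Ndufv3 (0.0509 to 0.136), while it called Ndufa5 (0.0341). The 5 not called by limma were Ndufs6, Ndufa11, Ndufc2, Ndufa10 and Ndufb11, with differences of -0.22 to -0.07, and the groups of Ndufa11, Ndufc2 and Ndufa10 did not overlap.

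**Figure D4:**
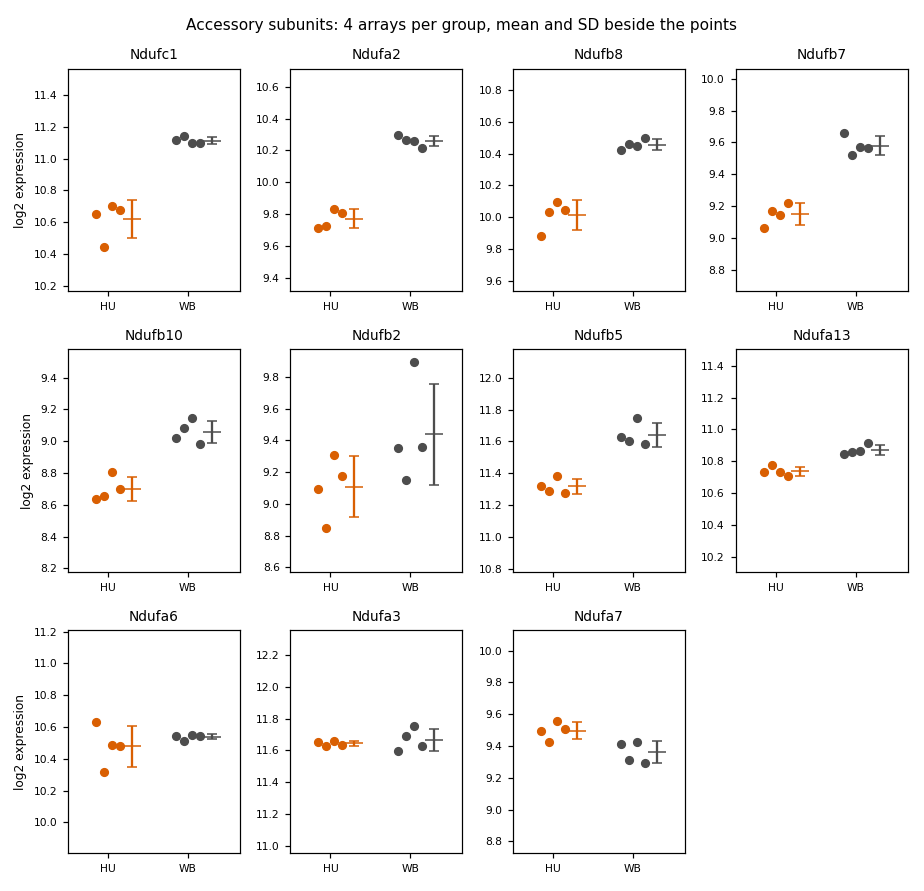
Log2 expression (y axis, all panels span the same range) of 11 accessory subunits on the 4 HU and 4 WB arrays (points), with the group mean and SD beside them. Ndufc1, Ndufa2, Ndufb8, Ndufb7, Ndufb10, Ndufb5 and Ndufa13 have no overlap between the groups, Ndufb2 has 1 WB array far above the rest, and Ndufa7 is the only one with the HU mean above the WB mean.

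All 7 Ndufaf assembly factors fell, by 1.19 to 1.34-fold, and in each of them every HU array was below every WB array. Ndufaf5 hydroxylates an arginine of the core subunit Ndufs7. Ndufaf5 read 7.15, 6.89, 6.92 and 7.08 log2 on the HU arrays, against 7.37, 7.51, 7.29 and 7.55 on the WB arrays. The fall was 1.34-fold (log2 difference -0.42 ± 0.08, SE, limma adjusted p = 0.00359). Ndufaf1 is part of the assembly complex of the membrane arm. Ndufaf1 measured 9.47, 9.24, 9.45 and 9.32 log2 on the HU arrays, against 9.86, 9.66, 9.83 and 9.74 on the WB arrays. It fell 1.32-fold (log2 difference -0.40 ± 0.07, SE, limma adjusted p = 0.00221). Ndufaf6 is needed for the mitochondrially encoded subunit Nd1. Ndufaf6 gave 6.88, 6.57, 6.74 and 6.41 log2 on the HU arrays, against 7.00, 7.02, 7.13 and 7.02 on the WB arrays. Here the HU arrays spread the most of all assembly factors (SD 0.21, against 0.06 on the WB arrays), with a fall of 1.31-fold (log2 difference -0.39 ± 0.09, SE, limma adjusted p = 0.0121) that the methods' t-test did not call (adjusted p = 0.109).

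Ndufaf2 is a paralog of the subunit Ndufa12 and takes its place during assembly. Ndufaf2 stood at 6.43, 6.49, 6.21 and 6.50 log2 on the HU arrays, against 6.78, 6.73, 6.85 and 6.54 on the WB arrays. WB replicate 4 came close to the highest HU array without an overlap, and the fall of 1.25-fold (log2 difference -0.32 ± 0.08, SE, limma adjusted p = 0.0206) was not called without the first WB array (adjusted p = 0.0538 by limma) or without the third (adjusted p = 0.0535 by limma). Ndufaf3 and Ndufaf4 bind each other and act on the Q module. Ndufaf4 read 8.34, 8.29, 8.38 and 8.38 log2 on the HU arrays, against 8.57, 8.62, 8.76 and 8.62 on the WB arrays. Ndufaf3 measured 8.82, 8.89, 9.06 and 9.03 log2 on the HU arrays, against 9.26, 9.17, 9.14 and 9.29 on the WB arrays. The pair fell by similar amounts, 1.23-fold for Ndufaf4 (log2 difference -0.29 ± 0.05, SE, limma adjusted p = 0.00349) and 1.204-fold for Ndufaf3 (log2 difference -0.27 ± 0.07, SE, limma adjusted p = 0.0146). Besides Ndufaf6, the methods' t-test did not call Ndufaf2 (adjusted p = 0.0802) or Ndufaf3 (adjusted p = 0.0642). Ndufaf7 is a methyltransferase that acts early in assembly. Ndufaf7 gave 6.96, 6.81, 6.98 and 6.98 log2 on the HU arrays, against 7.26, 7.12, 7.14 and 7.22 on the WB arrays. It fell 1.19-fold (log2 difference -0.25 ± 0.06, SE, limma adjusted p = 0.00984), with the second HU array below the other 3. Ndufs7, the subunit that Ndufaf5 modifies, was not called.

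**Figure D5:**
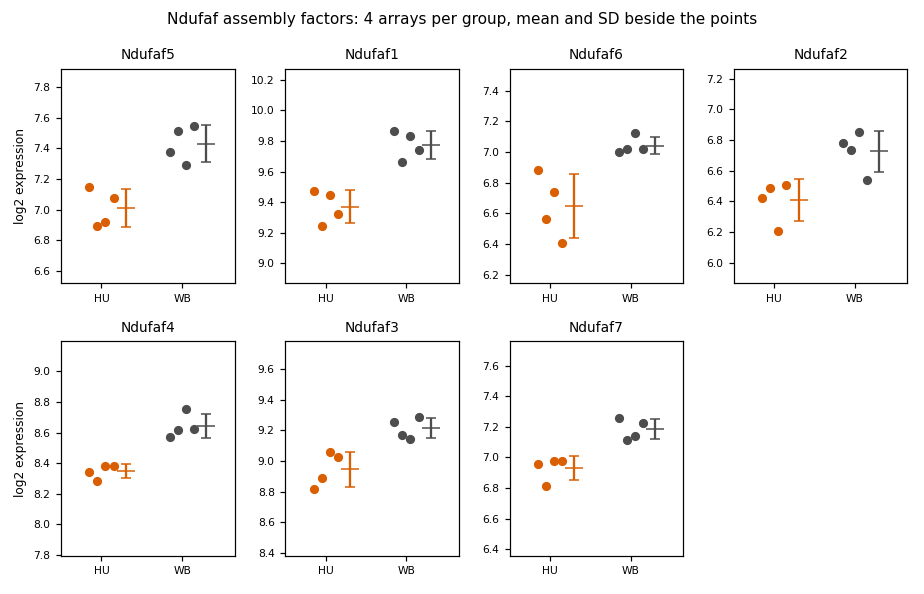
Log2 expression (y axis, all panels span the same range) of Ndufaf1 to Ndufaf7 on the 4 HU and 4 WB arrays (points), with the group mean and SD beside them. In all 7 panels the highest HU point is below the lowest WB point, by the least in Ndufaf2.

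Ndufa4 and Ndufa4l2 carry the family name but are set apart. Ndufa4 is now assigned to cytochrome c oxidase. Ndufa4 stood at 11.17, 11.04, 11.26 and 11.17 log2 on the HU arrays, against 11.23, 11.12, 11.18 and 11.23 on the WB arrays. The groups overlapped and the difference had a 95% interval of -0.16 to 0.10 (limma adjusted p = 0.716). Ndufa4l2, its paralog, is known as a gene raised in low oxygen. Ndufa4l2 read 6.83, 6.73, 7.01 and 7.05 log2 on the HU arrays, against 7.19, 7.27, 7.15 and 7.22 on the WB arrays. It fell 1.24-fold (log2 difference -0.31 ± 0.07, SE, limma adjusted p = 0.0131), with no overlap, but was not called by the methods' t-test (adjusted p = 0.0952). The pseudogene Ndufa11b fell 1.26-fold (limma adjusted p = 0.00448) and its parent gene Ndufa11 had a difference of -0.15 (limma adjusted p = 0.0743), but the copies share their name and origin, and how far their probes read both was not tested.

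Ndufb10, Ndufb2, Ndufb5, Ndufaf3 and Ndufa13 are 5 Nduf genes with a Bcl-3 peak in the promoter that chromatin immunoprecipitation gave for unloaded over weight bearing muscle. Bcl-3 is a nuclear factor that works with the NF-kB subunit p50. Of the 5, 4 fell and 0 rose, where 31 of all 44 Nduf genes (70.5%) fell and 0 rose. Whether a peak goes with a fall was not tested. Ndufb5 is a subunit of the membrane arm. Ndufb5 measured 11.32, 11.29, 11.39 and 11.28 log2 on the HU arrays, against 11.63, 11.60, 11.75 and 11.58 on the WB arrays. It fell 1.25-fold (log2 difference -0.32 ± 0.05, SE, limma adjusted p = 0.00202) with no overlap. Ndufa13, also called GRIM-19, sits where the arms meet. Ndufa13 gave 10.73, 10.78, 10.73 and 10.71 log2 on the HU arrays, against 10.84, 10.86, 10.86 and 10.92 on the WB arrays. Its fall of 1.10-fold (log2 difference -0.13 ± 0.04, SE, limma adjusted p = 0.0487) was the smallest of the 31, and with any 1 array left out the adjusted p was 0.0657 to 0.112 (limma), so that it was not called.

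Other genes of the pathway moved the same way in part, where 11.0% of all probe sets fell and 12.8% rose. Of 15 measured assembly factors of complex I without an Nduf symbol, 9 fell and 0 rose (median difference -0.25). Timmdc1, which acts on the membrane arm, fell 1.40-fold, Dmac2, a factor of the distal membrane arm, 1.27-fold, Lyrm2, a factor of the N module, 1.26-fold and Tmem126a 1.21-fold. Of 35 measured subunits of complexes II to V, 22 fell and 0 rose (median difference -0.19), among them Sdhb, an iron-sulfur subunit of complex II, by 1.35-fold and Cyc1, cytochrome c1 of complex III, by 1.39-fold. Atp5g1, 1 of the genes for a rotor subunit of ATP synthase, fell most of these, by 1.60-fold, with a mean of 7.29 on the WB arrays. Atp5g3, another gene for that subunit, had a mean of 11.85 on the WB arrays and fell 1.197-fold. Cox7a1, the muscle form of a complex IV subunit, fell 1.37-fold. The share that fell was 22 of 35 for these complexes and 22 of 34 for the subunits of complex I.

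Markers of other cells moved as well, and their part in the Nduf values was not tested. By limma 11.0% of all probe sets fell and 12.8% rose, and the counts below stand beside these shares. Of 8 slow fibre genes 4 fell (Myl2, Myl3, Tnni1 and Tnnt1; 0 of 8 by the methods' t-test), with list means of 9.85, 9.88, 10.17 and 10.41 on the HU arrays, against 10.57, 10.55, 10.44 and 10.54 on the WB arrays. HU replicates 3 and 4 were thus the nearest to the WB arrays in slow fibre genes. Over the 44 Nduf genes the HU arrays averaged 9.79, 9.73, 9.85 and 9.82, against 10.03, 10.003, 10.09 and 10.03 on the WB arrays. Among the WB arrays the order differed, with replicate 3 the lowest in slow fibre genes (10.44) and the highest in Nduf genes (10.09). Of 8 general muscle fibre genes 2 fell and 1 rose. Of 10 fibroblast genes 6 fell, with list means of 8.51 to 8.68 on the HU arrays and 9.52 to 9.77 on the WB arrays, and of 10 macrophage genes 7 fell, with list means of 7.09 to 7.33 on the HU arrays and 7.45 to 7.71 on the WB arrays. Of 8 endothelial genes 3 fell and of 7 adipocyte genes limma called 0 in either direction, and 0 without the adjustment for multiple tests (p under 0.05) or with the methods' t-test.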

How the data were processed

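The authors amplified and labelled 8 total RNA samples and hybridised them on Affymetrix Mouse Gene 1.0 ST arrays. They made the deposited log2 expression values by RMA (robust multi-array averaging over all arrays, on custom probe sets). RMA corrects the background, equalises the distributions and summarises the probes. The sources used here name neither its version nor the probe set release or build. All 8 columns were used and 0 were left unused. The authors' t-test results were not among the values used.

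The log2 values were used without further scaling or filter. The 44 Nduf genes were named by the platform annotation (18786 of 21212 probe sets with 1 symbol, 6 with several, 2420 unlisted). 1 further gene is not reported here. HU and WB arrays were compared with limma 3.58.1 (lmFit, eBayes, two-sided, R 4.3.3), with Benjamini-Hochberg adjustment over all probe sets, after the fit was tested on simulated data. The study's methods give 4 independent RNA samples per group and the titles call them biological replicates, without saying that each was 1 mouse. The precision is limited by 4 arrays per group. The study's methods name a t-test, which was run as an alternative. The others were a minimum change of 1.2-fold, an intensity trend with robust variances, array weights, quantile normalization, array medians set equal, a filter on the dimmest 25% or 50%, the replicate number as a block and leaving out each array. Promoter windows were taken from RefSeq (GRCm38.p6) by Entrez gene ID, with motifs searched on both strands. Python 3.11.15, pandas 2.3.3, numpy 2.4.6, scipy 1.17.1 and matplotlib 3.10.9 served the other steps.

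The members, classes and lists were chosen with earlier results of these data known. Values on all arrays are given for every core subunit, the 6 accessory subunits with the largest fall and the 3 at the other end, every assembly factor called, Ndufa4, Ndufa4l2 and the genes on the Bcl-3 list. Of other lists at most 4 called genes with the largest change are named, and Atp5g3 is named beside Atp5g1. Ndufa11b and the other accessory subunits are given by fold, range and count.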

Additional observations from a re-analysis of the deposited data

Results flagged for a closer look

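In 3 of the 88 groups of 4 arrays (44 genes in HU and in WB muscle), 1 array stood apart from the other 3 by Dixon's test at the 95% level, where chance gives about 1 in 20 groups. Ndufaf7 on the second HU array read 6.812 log2, while the other HU arrays read 6.956 to 6.979. Ndufv1 on the fourth WB array read 11.04 log2, while the other WB arrays read 10.958 to 10.966. Ndufa6 on the second WB array read 10.513 log2, while the other WB arrays read 10.544 to 10.55. With any 1 array left out, the limma adjusted p of Ndufaf7 stayed between 0.0144 and 0.0314, that of Ndufv1 between 0.0698 and 0.151 and that of Ndufa6 between 0.179 and 0.946.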

How the results depend on the processing

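Of the 31 Nduf genes that fell, 15 were called lower under all 16 alternatives with a value per gene and 21 under every fit with 1 array left out. The methods' t-test called 1374 probe sets lower and 1393 higher on the whole array, and 18 Nduf genes, 10 accessory subunits and 4 assembly factors lower. A minimum change of 1.2-fold left 1558 probe sets lower and 1244 higher, and 19 Nduf genes and 9 accessory subunits lower. Without the dimmest 50% of probe sets, and also after quantile normalization, 1 Nduf gene was called higher, the accessory subunit Ndufa7. With 1 array left out, 1833 to 2206 probe sets were called lower and 1802 to 2852 higher (fewest higher without HU replicate 3). Of the Nduf genes 22 to 27 were then called lower, and of the accessory subunits 10 to 15 (10 without HU replicate 2, 11 without WB replicate 1, 3 or 4). The median difference of the assembly factors was then -0.382 to -0.291, lowest without WB replicate 4, and that of the core subunits -0.202 to -0.162. The difference of Ndufa4 changed sign without HU replicate 2 (-0.065 to 0.009 with 1 array left out), and that of Ndufa3 without WB replicate 3 (-0.048 to 0.004) and after quantile normalization (0.032). Neither of these genes was called under any alternative. The cause of these changes was not tested.

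With the replicate number as a block (replicate block), 2213 probe sets were called lower and 2455 higher, and 28 Nduf genes lower, among them 3 core subunits, 16 accessory subunits and 7 assembly factors. Ndufb2 (limma adjusted p = 0.0205) and Ndufs6 (0.0254) were then called lower, and Ndufb3, Ndufv3, Ndufb6, Ndufb9 and Ndufa13 no longer. The sample titles give replicate numbers and do not say that equal numbers pair the samples. Deviations of same-numbered arrays correlated with r of 0.024 to 0.12, and those of other arrays with r of -0.138 to 0.102. Of the 8 arrays 6 correlated best with their own number, and whether equal numbers share an effect was not settled by these values.

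Precision rests on 4 arrays per group, and calls of falls up to 1.25-fold (Ndufaf2) were lost as single arrays were left out, those of Ndufb3 (1.203-fold, adjusted p up to 0.102) and Ndufb4 (1.15-fold, up to 0.114) among them. Ndufb4, Ndufa11, Ndufa12, Ndufs5 and Ndufs6 have annotated copies, from which their probe sets were not told apart. Over the 44 Nduf genes mean level and difference correlated with a Pearson r of 0.40, the dimmer genes tending to have the larger falls. Over the 34 subunits alone the Pearson r was 0.28. Of all probe sets 54.1 to 92.2% were dimmer than an assembly factor, and at least 96.5% were dimmer than a core subunit. Whether brightness bears on the class medians was not tested. Levels of different probe sets were not read as relative amounts of transcript, and protein and complex I activity were not measured here.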
